A study of Sus scrofa with 12 samples.

Results

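The difference between pigs with a high and a low fat trait was set side by side in 2 tissues of Dingyuan pigs, a local breed known for its fatness. For each gene the HBF minus LBF difference in back subcutaneous fat was compared with the HIMF minus LIMF difference in longissimus dorsi (LD) muscle. Both were differences of mean log2(FPKM + 0.1), where FPKM is a count of fragments scaled to transcript length and library size. The comparison covered the 15965 genes with a mean FPKM above 0.05 over the 12 libraries, of 31903 genes listed. The gene nearest above that limit was MAP3K9 at 0.0501 and the nearest below was MPP4 at 0.0499. HBF and LBF are back fat of pigs with high and low backfat thickness, and HIMF and LIMF are LD muscle with high and low intramuscular fat, with 3 libraries in each group. Every pig was labelled as 300 days old, and the study describes unmated sows of similar weight. The tissues were therefore split by different traits, and neither source says whether a fat and a muscle library came from the same pig. Each library is RNA of whole tissue, so fewer cells of a type and less RNA per cell cannot be told apart. Total FPKM per library ran from 420982 to 514247 in LBF and 469603 to 503498 in HBF, and from 430581 to 450875 in LIMF and 496972 to 517796 in HIMF, so the totals did not overlap between the muscle groups. No read counts were used here, so the depth behind a value is unknown.

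Subcutaneous fat is made up mainly of adipocytes, which hold most of the triglyceride of the body, make fatty acids from glucose and secrete hormones such as leptin. Intramuscular fat is the lipid of small groups of adipocytes that lie between the fibres of a muscle, together with droplets inside the fibres, and a muscle library is mostly fibre RNA. The 2 depots grow at different times and to different extents in the pig.

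The defining markers fitted the labelled tissues in most libraries, with some exceptions that touch the comparison. The 6 muscle fibre markers that were listed (ACTA1, CKM, ACTN2, CASQ1, LMOD2 and PRKAG3) summed to 164 FPKM in LBF replicate 3 and to 0.585 to 2.61 FPKM in the other 5 fat libraries. The 18 kidney genes, a list drawn up after the data were seen, summed to 68.0 FPKM in LBF replicate 2 and 89.9 FPKM in LIMF replicate 2, and to 0.263 to 5.53 FPKM elsewhere. UMOD, the urinary protein uromodulin, was at 10.4 and 11.7 FPKM in these 2 libraries and at 0 to 0.265 in the others. The Y-linked gene EIF1AY was at 16.9 FPKM in HBF replicate 3 and 26.9 in LIMF replicate 1, at 0.311 in LBF replicate 3 and at 0 in the other 9. In all, 36 genes were listed at 0 in at least 1 library of a tissue whose median for the gene was over 1 FPKM, and in muscle CKM was listed at 0 in LIMF replicates 2 and 3 and at 7172 to 9288 FPKM in the other 4. Such a 0 can be a failed estimate. The EIF1AY transcripts in HBF replicate 3 and LIMF replicate 1 do not match the sows that the study describes. Summed with the other Y-linked gene on the list they were 17.8 and 26.9 FPKM in these 2 libraries. Nearly all of that sum was EIF1AY, so the mismatch rests on 1 gene. Whether these samples were mixed or mislabelled was not tested. Class counts and the called genes are given below without these libraries too.

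**Figure D1:**
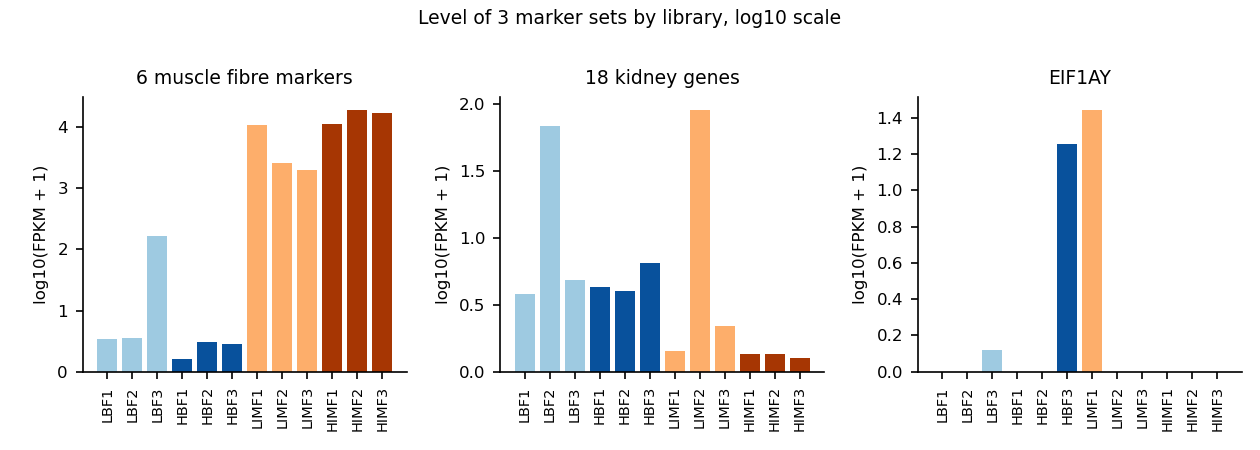
Bars give log10(FPKM + 1) in each of the 12 libraries for the sum of 6 muscle fibre markers, the sum of 18 kidney genes and the Y-linked gene EIF1AY, coloured by group. LBF3 stands out among the fat libraries for muscle markers, LBF2 and LIMF2 for kidney genes, and HBF3 and LIMF1 for EIF1AY.

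Across the 15965 genes, the differences in fat and in muscle were close to uncorrelated. Pearson's r between the 2 differences was 0.067 and Spearman's rho was -0.010, a description over genes that share libraries and are not independent replicates. The differences themselves had a like spread, with an SD of 0.53 in fat and 0.53 in muscle, and their medians were 0.09 and 0.02. Of all genes, 49.7% had the same sign in both tissues. Genes higher in both high groups made up 31.5%, genes lower in both 18.1%, genes higher in HBF and lower in HIMF 28.3% and genes lower in HBF and higher in HIMF 21.1%. Restricting the comparison to genes with an absolute difference of at least 1 in fat gave a same-sign share of 49.7% over 969 genes, and 51.1% over the 777 genes with such a difference in muscle.

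By level of expression, r was 0.056 over 4883 genes at a mean FPKM of 0.05 to 1, 0.020 over 6785 genes at 1 to 10, -0.059 over 3810 genes at 10 to 100 and 0.386 over 487 genes above 100. Over the 479 of these most abundant genes that were not among the 36 listed at 0 it was -0.095, and over all 15929 genes without those 36 it was 0.016. Leaving out 1 library at a time moved r from -0.026 without LBF replicate 2 to 0.139 without LBF replicate 1, and rho from -0.076 to 0.028. Without LBF replicate 2 and LIMF replicate 2, the libraries with kidney transcripts, r was -0.013, and without the EIF1AY libraries it was 0.107. The deviations of LBF replicate 2 and LIMF replicate 2 from their group means correlated at 0.244 over genes, the highest of the 36 pairs of a fat and a muscle library. At a mean FPKM over 1 this was 0.169. The next highest over all genes was 0.126 for LBF replicate 1 and LIMF replicate 1. Both libraries with kidney transcripts are in low groups, and 15 of the 17 kidney genes tested had the same sign in both tissues. The part of kidney transcripts in the other genes of LBF replicate 2 and LIMF replicate 2 was not tested.

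**Figure D2:**
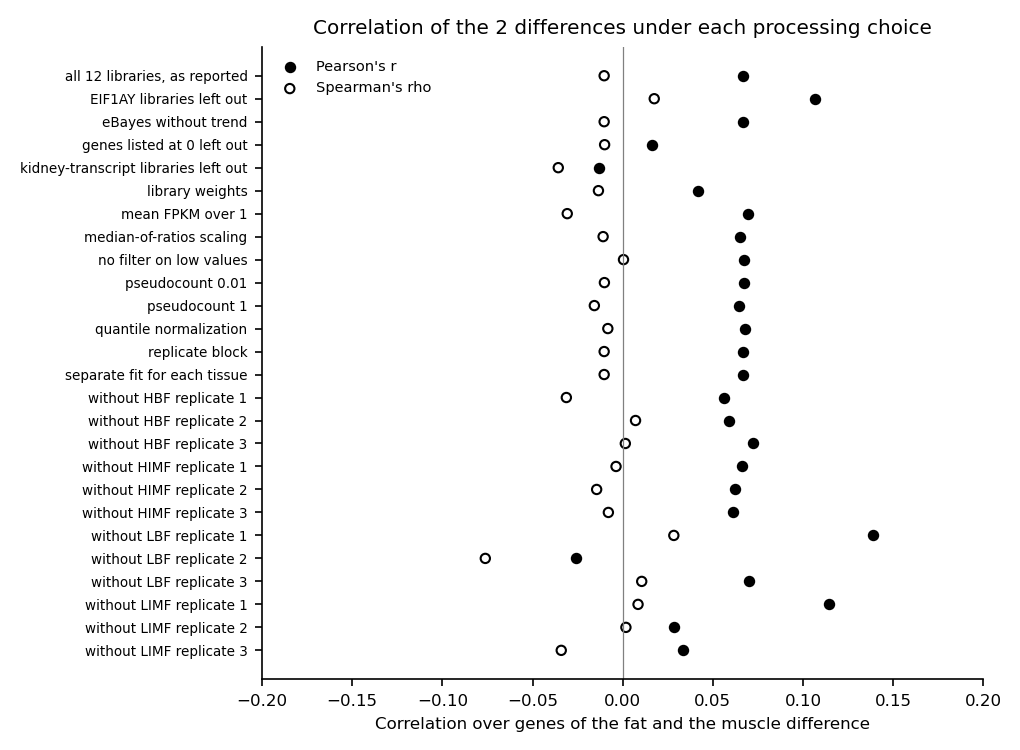
Pearson's r (filled) and Spearman's rho (open) over genes between the fat and the muscle difference, with all 12 libraries and under each other choice of processing or libraries. Every value lies between -0.08 and 0.14.

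By limma over all genes, with p-values adjusted by the Benjamini-Hochberg method, 8 genes changed in fat (0.0501% of those tested), 2 in muscle (0.0125%), 1 in the mean of both differences (0.00626%) and 0 in the difference between the tissues (0.0%). The smallest adjusted p for the difference between the tissues was 0.0748, for KRT80. With p under 0.05 before adjustment stood 1778 genes in fat (11.1%), 1573 in muscle (9.85%), 1628 for the difference between the tissues (10.2%) and 1686 for the mean (10.6%). Since no gene passed the adjusted test of the difference, the groups below are defined by unadjusted p-values and serve as a description. Same-direction and opposite genes had an unadjusted p under 0.05 in both tissues. Fat-limited genes had it in fat and for the difference between the tissues but not in muscle, and muscle-limited genes in muscle and for the difference but not in fat.

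By these rules 79 genes were same-direction (0.495%), 89 opposite (0.557%), 653 fat-limited (4.09%) and 604 muscle-limited (3.78%). Split by direction, 64 genes were higher in both high groups (0.401%) and 15 lower in both (0.094%), 53 were higher in HBF and lower in HIMF (0.332%) and 36 the reverse (0.225%). Without the EIF1AY libraries there were 74 same-direction, 81 opposite, 656 fat-limited and 426 muscle-limited genes, and 31 of the 79 same-direction and 41 of the 89 opposite genes remained in their class. Without the kidney-transcript libraries these counts were 66, 84, 640 and 496, and 27 of the 79 and 37 of the 89 remained. Without HBF replicate 1 alone 35 and 44 remained, and this library is in neither pair. Of the fat-limited genes 432 were higher (2.71%) and 221 lower (1.38%) in HBF, and of the muscle-limited genes 354 were higher (2.22%) and 250 lower (1.57%) in HIMF. Of the 1778 genes with p under 0.05 in fat, 168 or 9.45% were also under 0.05 in muscle, against 9.85% of all genes. Of the 1573 muscle genes, 10.7% were under 0.05 in fat, against 11.1% of all genes. Of the 168 genes under 0.05 in both, 47.0% had the same sign. The FPKM of high and low groups did not overlap in fat for 20.4% of genes and in muscle for 12%, and did not overlap in either tissue for 193 genes in the same direction (1.21%) and 177 in opposite directions (1.11%). The split of the same-direction genes rested on scaling: 64 of 79 were higher with the FPKM as deposited, 34 of 68 were higher after scaling by median of ratios and 37 of 73 after quantile normalization. Of the genes under 0.05 in fat, 69.7% were higher in HBF as deposited and 50.0% and 50.3% after these 2 scalings, and the median of all fat differences moved from 0.09 to 0. In muscle the shares higher in HIMF were 63.0%, 53.0% and 56.5%. Of the opposite genes 59.6% were higher in HBF as deposited, 44.6% after scaling by median of ratios and 40.9% after quantile normalization, and of the fat-limited genes 66.2%, 50.2% and 50.8%. Just inside the limit of the same-direction genes was PLP2, whose larger p was 0.0494, and just outside was MVP at 0.0502. For opposite genes these were MAP2K3 at 0.0498 and SCCPDH at 0.0515.

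**Figure D3:**
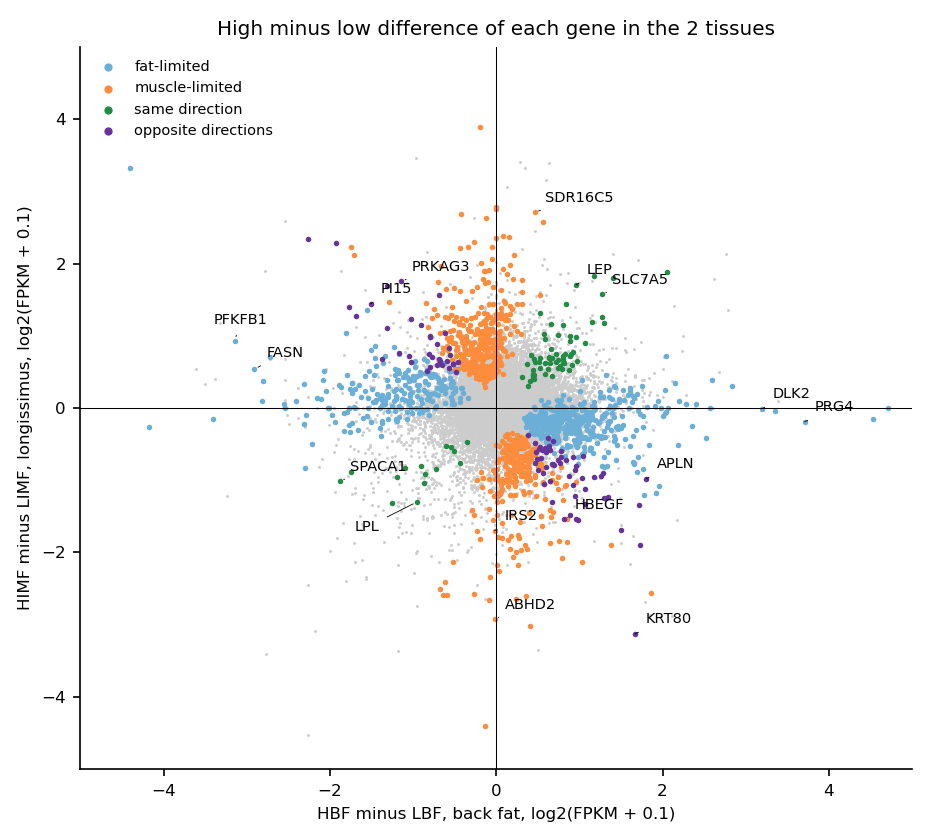
Each point is a gene, with its HBF minus LBF difference in back fat on the x axis and its HIMF minus LIMF difference in LD muscle on the y axis, both in log2(FPKM + 0.1), and with the 4 groups of genes coloured. The points form a cross rather than a diagonal, and 11 genes lie beyond the axis limits of 5.

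Among the genes higher in both high groups was SLC7A5. SLC7A5 (chr6:1545940-1574298 in Sscrofa11.1), the light subunit of the leucine transporter LAT1, was listed at 0.260, 0.396 and 0.584 FPKM in LBF and 1.43, 0.833 and 1.10 FPKM in HBF. In muscle it was at 3.05, 2.24 and 2.70 FPKM in LIMF and 8.53, 7.94 and 7.75 FPKM in HIMF. In each tissue the 3 high libraries lay above the 3 low ones. The difference was 1.27 ± 0.27 (SE) in fat and 1.58 ± 0.27 (SE) in muscle, with adjusted p of 0.161 and 0.0824 by limma, and 0.0670 for the mean of both. The mean of both differences is the test closest to a shared change, and SLC7A5 missed its threshold.

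LEP (chr18:20106867-20124071) encodes leptin, the satiety hormone that adipocytes release. It was at 98.5, 33.9 and 53.5 FPKM in LBF and 114, 109 and 106 FPKM in HBF, so the HBF libraries were nearly equal and LBF replicate 1 lay close below them. Muscle held only traces, with 0.0992, 0.0478 and 0.0310 FPKM in LIMF and 0.453, 0.440 and 0.348 FPKM in HIMF, and here too every high library lay above every low one. The differences were 0.96 ± 0.32 (SE) and 1.71 ± 0.32 (SE), with adjusted p of 0.307 and 0.104. Without the libraries with kidney transcripts the fat difference was 0.59 and the muscle difference 1.66. Since the pseudocount of 0.1 exceeds some of the muscle values, the muscle difference understates the ratio.

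The other genes of this kind that the naming rule gave were CSK, the kinase that holds Src kinases inactive, HS6ST1, a heparan sulfate sulfotransferase, FAM20C, the kinase of secreted phosphoproteins, HGH1, SELENOH, a nuclear selenoprotein, and TSPAN10. Their differences ran from 0.58 to 0.96 in fat and from 0.56 to 0.98 in muscle. CSK was at 6.54, 7.67 and 8.07 FPKM in LBF and 12.9, 12.5 and 11.96 FPKM in HBF, and at 1.53, 1.81 and 2.35 FPKM in LIMF and 2.93, 2.61 and 2.89 FPKM in HIMF. Neither its groups nor those of the other 5 overlapped in either tissue. HS6ST1 was at 6.02, 7.01 and 4.69 FPKM in LBF and 9.09, 8.84 and 8.49 FPKM in HBF, and at 18.2, 18.2 and 24.8 FPKM in LIMF and 32.2, 49.5 and 38.4 FPKM in HIMF. Its difference between the tissues, -0.38 ± 0.29 (SE), had an unadjusted p of 0.217.

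The 15 genes lower in both high groups included LPL (chr14:4104761-4134964), the lipoprotein lipase that frees fatty acids from circulating triglyceride. Its values were 1124, 977 and 842 FPKM in LBF and 368, 588 and 589.6 FPKM in HBF, and 85.1, 76.3 and 136 FPKM in LIMF and 40.4, 21.6 and 67.0 FPKM in HIMF. No high library reached a low one in either tissue, though HIMF replicate 3 lay near LIMF replicate 2. The differences were -0.95 ± 0.37 (SE) in fat and -1.30 ± 0.37 (SE) in muscle, with adjusted p of 0.383 and 0.271 and of 0.261 for their mean. Both differences were negative whichever library was left out.

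CTH, the enzyme that makes cysteine from cystathionine, was at 6.11, 4.77 and 6.58 FPKM in LBF and 2.73, 2.02 and 3.34 FPKM in HBF. In muscle it was at 4.11, 5.36 and 2.48 FPKM in LIMF and 2.49, 2.27 and 1.62 FPKM in HIMF, where LIMF replicate 3 lay inside the HIMF range. ACO1, the cytosolic aconitase that also binds iron-responsive elements, was at 117, 71.5 and 78.5 and 70.1, 60.7 and 53.4 FPKM in LBF and HBF and at 12.04, 13.2 and 13.9 FPKM in LIMF and 7.32, 8.98 and 9.52 FPKM in HIMF. The remaining named members were UBE4B, a ubiquitin chain assembly factor, ZNF232, SPACA1 and the muscle genes ASB5 and ALPK3.

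ASB5, ALPK3 and ACTN2 are muscle genes, and LBF replicate 3 held muscle transcripts, whose part in the other fat values was not tested. ASB5 was at 7.52, 4.56 and 5.83 FPKM in LBF and 2.97, 4.02 and 2.65 FPKM in HBF, against 244, 245 and 131 FPKM in LIMF and 118, 74.1 and 104 FPKM in HIMF, and its fat difference of -0.87 was -0.87 without LBF replicate 3. ALPK3, a kinase-like protein of striated muscle, was at 0.253, 0.192 and 0.507 FPKM in LBF and 0.119, 0.124 and 0.185 in HBF, and its fat difference went from -0.72 to -0.41 without that library, with an unadjusted p of 0.0898. ACTN2, the muscle alpha-actinin, was at 0.856, 1.49 and 3.48 FPKM in LBF and 0.265, 0.529 and 0.525 FPKM in HBF, and at 729, 832 and 762 FPKM in LIMF and 384, 338 and 563 FPKM in HIMF, with a fat difference of -1.75 that was -1.23 without LBF replicate 3.

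The gene with the smallest p for the difference between the tissues was KRT80 (chr5:17482454-17506462), a type II keratin of epithelial cells. In fat it was low throughout, at 0.0676, 0.0520 and 0.0669 FPKM in LBF and 0.279, 0.613 and 0.403 FPKM in HBF. In muscle it was at 1.49, 4.80 and 1.37 FPKM in LIMF and 0.143, 0.212 and 0.127 FPKM in HIMF. The groups did not overlap in either tissue and their order was reversed between the tissues. The fat difference was 1.67 ± 0.42 (SE), the muscle difference -3.13 ± 0.42 (SE) and the difference between them 4.79 ± 0.60 (SE), with an adjusted p of 0.0748 that did not pass. LIMF replicate 2, with its kidney transcripts, had the highest KRT80 value of all libraries. Without both libraries of that kind the differences were 1.62 and -2.57. Of the epidermal markers, KRT14 was at 0.701, 0.270 and 0.415 FPKM in LBF, 0.305, 0.883 and 0.715 FPKM in HBF and 0.185, 0.251 and 0.477 FPKM in LIMF and 0.178, 0.0522 and 0.101 FPKM in HIMF, and KRT10 was at 1.82, 1.14 and 1.17 FPKM in LBF, 2.60, 1.80 and 1.97 FPKM in HBF and 0.666, 0.633 and 0.751 FPKM in LIMF and 0.657, 0.895 and 0.766 FPKM in HIMF. KRT14 was thus also lower in every HIMF library than in every LIMF one, and KRT10 was higher in HBF with p under 0.05 and overlapped between the muscle groups. These 2 markers and KRT80 itself, which is on the epidermal list, summed to 1.46 to 2.59 FPKM in LBF and 3.09 to 3.30 in HBF, and to 2.34 to 5.68 in LIMF and 0.979 to 1.16 in HIMF. All 3 had a positive fat difference, and the part of epidermal cells in the KRT80 difference was not tested.

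APLN (chrX:106236746-106246563), the secreted peptide apelin, which acts on vessels and on glucose uptake, was also higher in HBF and lower in HIMF. Its values were 1.91, 1.06 and 0.790 FPKM in LBF and 3.65, 3.83 and 5.91 FPKM in HBF, against 0.605, 0.572 and 0.845 FPKM in LIMF and 0.227, 0.233 and 0.437 FPKM in HIMF. HBEGF (chr2:142102455-142115192), a membrane-bound ligand of the EGF receptor, was at 1.12, 0.890 and 1.66 FPKM in LBF and 1.92, 2.03 and 2.59 FPKM in HBF, and at 24.9, 16.4 and 17.6 FPKM in LIMF and 9.67, 6.67 and 4.39 FPKM in HIMF. For both genes every high library was above every low one in fat and below every low one in muscle. The differences between the tissues were 2.78 ± 0.48 (SE) and 2.35 ± 0.43 (SE), with adjusted p of 0.148 and 0.148.

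TENT5B, a cytoplasmic poly(A) polymerase, was at 8.81, 3.79 and 6.75 FPKM in LBF and 15.4, 9.60 and 9.90 FPKM in HBF, and at 2.73, 4.52 and 3.66 FPKM in LIMF and 1.08, 1.02 and 1.61 FPKM in HIMF. Its LBF replicate 1 lay close to the HBF values, and the muscle groups lay further apart, with a difference of -1.48. YWHAH, a 14-3-3 adaptor protein, was at 31.5, 39.0 and 47.2 FPKM in LBF and 71.9, 80.2 and 58.5 FPKM in HBF, and at 28.2, 25.7 and 19.7 FPKM in LIMF and 14.4, 15.8 and 14.1 FPKM in HIMF. PLEC, the cytoskeletal linker plectin, EPB41L4A and CDC42EP2, an effector of the GTPase CDC42, completed the named genes of this direction. Their fat differences ran from 0.59 to 1.05 and their muscle differences from -0.86 to -0.67. STC2, a secreted glycoprotein, and ACSS1, the mitochondrial acetyl-CoA synthetase, from the gene lists used, fell in the same group of genes with muscle differences of -1.53 and -1.25 and fat differences of 0.96 and 1.29.

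In the reverse direction, lower in HBF and higher in HIMF, stood 36 genes. PRKAG3 (chr15:120859486-120866308), the muscle form of the gamma subunit of AMP-activated protein kinase and a known meat quality gene of the pig, was at 16.1, 7.88 and 10.6 FPKM in LIMF and 31.9, 54.4 and 30.3 FPKM in HIMF. In fat it was at 0.585, 0.0776 and 0.215 FPKM in LBF and 0.0285, 0.0526 and 0.0817 FPKM in HBF, where LBF replicate 2 lay just below HBF replicate 3 and LBF replicate 1 stood highest. The muscle groups did not overlap, and the fat groups did. The differences were -1.14 ± 0.44 (SE) and 1.76 ± 0.44 (SE), with 0.383 and 0.200 as adjusted p. The fat values lie near the pseudocount.

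CDK5RAP1, an enzyme that modifies mitochondrial tRNAs, had the smallest p for the difference between the tissues in this direction. It was at 7.997, 6.10 and 5.21 FPKM in LBF and 4.18, 4.02 and 4.61 FPKM in HBF, and at 30.4, 30.6 and 33.0 FPKM in LIMF and 50.8, 54.4 and 50.8 FPKM in HIMF, so the muscle groups were tight and far apart. The difference between the tissues was -1.29 ± 0.23 (SE) with an adjusted p of 0.148.

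Of the 20 matrix and secreted genes measured, 3 were of this kind, against 0.225% of all genes, and none of them passed the adjusted test of the difference. That list was chosen with results of these data known, so its share cannot be read as an excess. PI15, a secreted peptidase inhibitor, was at 1.40, 0.488 and 1.11 FPKM in LBF and 0.328, 0.199 and 0.261 FPKM in HBF, and at 0.165, 0.607 and 0.257 FPKM in LIMF and 1.27, 0.764 and 1.04 FPKM in HIMF. ADAMTSL1, a matrix glycoprotein, was at 0.683, 0.657 and 1.07 FPKM in LBF and 0.146, 0.275 and 0.336 FPKM in HBF, and at 0.109, 0.177 and 0.219 FPKM in LIMF and 0.377, 0.262 and 0.332 FPKM in HIMF. FNDC1, a fibronectin domain protein, had differences of -1.32 in fat and 1.11 in muscle. CELSR2, an atypical cadherin, UST, a sulfotransferase of glycosaminoglycans, and IQCK had fat differences of -1.05, -0.80 and -0.68 and muscle differences of 0.72, 0.99 and 1.56. WDR6, a WD-repeat protein, was at 1.26, 2.06 and 1.78 FPKM in LBF and 0.502, 1.04e-04 and 0.733 FPKM in HBF, and at 0.00233, 5.92e-05 and 7.57e-05 FPKM in LIMF and 0.248, 1.10 and 0.221 FPKM in HIMF. All 3 LIMF values and HBF replicate 2 were near 0, so the difference rests on the pseudocount and is not read as a fold.

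Of the 8 genes that passed the adjusted test in fat, all fell under the fat-limited rule, but for 5 of them (GPC5, PRG4, DLK2 and 2 identifiers) every muscle library was at or below 0.122 FPKM, so the rule says nothing of their response in muscle. None of the 8 passed without the 2 libraries with EIF1AY, where their adjusted p ran from 0.0627 to 0.122, nor in a separate fit of each tissue, without HIMF replicate 2 or without LIMF replicate 2. With the replicate number as a block, PFKFB1 and PRG4 passed, at 0.0455 and 0.0453, and the other 6 ran from 0.0585 for FASN to 0.179. Each passed in 7 to 16 of up to 25 alternatives. FASN (chr12:922405-937560), the fatty acid synthase, fell in HBF, from 980.3, 333 and 581 FPKM in LBF to 65.1, 51.0 and 134 FPKM in HBF. In muscle it was at 1.08, 1.39 and 1.07 FPKM in LIMF and 1.85, 1.66 and 1.73 FPKM in HIMF, with all HIMF values above all LIMF values. The fat difference was -2.91 ± 0.38 (SE) with an adjusted p of 0.0318, the muscle difference 0.54 ± 0.38 (SE) with 0.734, and the difference between them -3.45 ± 0.54 (SE) with 0.138. PFKFB1, which sets the level of the glycolytic activator fructose 2,6-bisphosphate, showed the same pattern. It fell in fat from 8.32, 2.39 and 8.77 FPKM in LBF to 0.584, 0.346 and 0.780 FPKM in HBF, and was at 23.3, 14.2 and 26.0 FPKM in LIMF and 36.0, 46.1 and 36.3 FPKM in HIMF. Without the EIF1AY libraries the fat differences were -3.32 for FASN, with an adjusted p of 0.0627, and -3.37 for PFKFB1, with 0.0996. The PFKFB1 difference between the tissues was -4.08 ± 0.63 (SE) with an adjusted p of 0.136.

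PPP1R1A, an inhibitor of protein phosphatase 1 that is abundant in muscle, fell in fat from 20.1, 19.95 and 15.9 FPKM in LBF to 6.45, 4.54 and 6.14 FPKM in HBF and was at 296, 289 and 244 FPKM in LIMF and 430.1, 321 and 261 FPKM in HIMF. GPC5, a heparan sulfate proteoglycan, fell from 2.77, 2.56 and 2.16 to 0.565, 0.410 and 0.534 FPKM in fat and was listed at 0 in 5 of 6 muscle libraries. The adjusted p in fat were 0.0306 and 0.0253, and 0.0852 and 0.0849 without the EIF1AY libraries. Since a listed 0 can be a failed estimate, the GPC5 values in muscle are not compared. TXLNB, a muscle taxilin, the basement membrane collagen COL4A5, the kinase inhibitor protein PEBP1 and LOC100512873 had fat differences of -1.49, -1.89, -1.04 and -2.72 and muscle differences of 0.27, 0.32, 0.40 and 0.71.

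Among fat-limited genes that were higher in HBF, PRG4, the lubricating proteoglycan lubricin, rose from 2.94, 0.921 and 1.03 FPKM in LBF to 38.2, 10.3 and 19.6 FPKM in HBF and was at 0, 0.122 and 0.0883 FPKM in LIMF and 0.0397, 0.102 and 0 FPKM in HIMF. DLK2, a membrane protein related to the preadipocyte factor DLK1, was at 0.0587, 0 and 0.1202 FPKM in LBF and 2.62, 0.934 and 0.853 FPKM in HBF, and at 0 to 0.0269 FPKM in muscle. Their adjusted p in fat were 0.0432 and 0.0314, and 0.122 and 0.0849 without the EIF1AY libraries. The identifiers ENSSSCG00000010165 and ENSSSCG00000049255, which had no name in the tables used, also passed, at 0.340, 0.299 and 0.310 and at 0.483, 0.492 and 0.570 FPKM in HBF. DLK2 and these 2 identifiers, 3 of the 8, passed the filter on low values only through HBF, the group where they were high, so they had to differ and support nothing further. ESM1, a proteoglycan of sprouting endothelium, and BID, a pro-apoptotic BCL2 family member, had fat differences of 2.18 and 1.68 and muscle differences of -0.51 and -0.30.

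SREBF2, the transcription factor of cholesterol synthesis, was at 9.58, 8.69 and 7.74 FPKM in LBF and 14.2, 13.9 and 13.2 FPKM in HBF, and at 2.65, 2.83 and 2.60 FPKM in LIMF and 2.22, 2.01 and 2.32 FPKM in HIMF. Its groups did not overlap in either tissue, in opposite orders, but the muscle p of 0.0682 kept it out of the opposite genes. SYNPO, an actin-binding protein, FAM131C and MEGF6 had fat differences of 0.90, 2.52 and 2.35 and muscle differences of -0.31, -0.41 and -0.25.

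In muscle SDR16C5 (chr4:75586346-75598985), a retinol dehydrogenase, rose from 0.257, 0.224 and 0.117 FPKM in LIMF to 2.07, 2.11 and 1.37 FPKM in HIMF. The difference was 2.71 ± 0.26 (SE) with an adjusted p of 0.00540, and over the alternatives it ran from 1.24 to 3.19. In fat, where the gene was far more abundant, it was at 491, 313 and 499 FPKM in LBF and 547, 739 and 494 FPKM in HBF, with a difference of 0.46 ± 0.26 (SE) and an adjusted p of 0.543. It was the only gene past the threshold for the mean of both differences, at 0.0385. With a replicate block its adjusted p was 0.0635 in muscle and 0.181 for the mean, in a separate fit of the muscle libraries it was 0.570, and without the EIF1AY libraries it was 0.0188 in muscle and 0.116 for the mean, and over the alternatives the muscle call held in 21 of 25 and the call for the mean in 10 of 24. The other gene past the threshold in muscle, ENSSSCG00000042373, was listed at 0 in 9 libraries and at 1.01, 0.587 and 0.307 FPKM in HIMF. It passed the filter only through HIMF and its zeros can be failed estimates, so its call supports nothing.

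CYP4B1, a cytochrome P450 of fatty acid hydroxylation, was like SDR16C5 far more abundant in fat. It was at 0.0231, 0.1005 and 0.0946 FPKM in LIMF and 0.788, 0.461 and 0.356 FPKM in HIMF, against 302, 213 and 324 FPKM in LBF and 370.5, 269 and 276 FPKM in HBF. PCYOX1, prenylcysteine oxidase, was at 48.3, 36.4 and 41.5 FPKM in LIMF and 97.4, 76.7 and 79.9 FPKM in HIMF. TENT5C, a poly(A) polymerase related to TENT5B, was at 0.692, 0.891 and 1.26 FPKM in LIMF and 4.64, 4.17 and 2.63 FPKM in HIMF and at 1.99, 2.02 and 2.38 and 1.27, 2.17 and 2.58 FPKM in LBF and HBF. TENT5C and TENT5B thus had muscle differences of opposite sign, 1.90 and -1.48. SEMA6C, a semaphorin, ANAPC4, a subunit of the anaphase-promoting complex, DCLK1, a microtubule-associated kinase, and C18orf21 had muscle differences from 0.78 to 1.39 and fat differences from -0.53 to -0.14.

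IRS2, a docking protein of the insulin receptor, was at 10.8, 6.90 and 7.61 FPKM in LIMF and 3.64, 1.998 and 2.09 FPKM in HIMF, while in fat it was at 19.2, 23.2 and 30.3 FPKM in LBF and 20.2, 28.9 and 22.1 FPKM in HBF. Its muscle difference was -1.70 ± 0.27 (SE) with an adjusted p of 0.0638, and its fat difference -0.02 ± 0.27 (SE). The receptor INSR had a muscle difference of -1.81 and a fat difference of -0.20, while IRS1, the other main docking protein, was higher in HIMF by 1.23 and had -0.02 in fat.

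ABHD2 and RLBP1, which lie next to each other on chromosome 7 (chr7:54655694-54776140 and chr7:54783965-54800008) with 7824 bases between them, were both lower in HIMF. ABHD2, a lipid hydrolase, was at 6.09, 8.55 and 2.997 FPKM in LIMF and 0.487, 0.353 and 1.33 FPKM in HIMF, and RLBP1, a retinal binding protein, was at 14.8, 20.1 and 7.33 FPKM in LIMF and 1.22, 1.71 and 3.75 FPKM in HIMF. In fat ABHD2 was at 1.34, 1.23 and 1.05 and 1.01, 1.27 and 1.29 FPKM in LBF and HBF, and RLBP1 at 4.75, 4.29 and 3.37 and 5.28, 4.75 and 4.55 FPKM. In both genes LIMF replicate 2 was the highest muscle library, and without the libraries with kidney transcripts the muscle differences went from -2.92 to -2.60 and from -2.64 to -2.33. SMPDL3A, an acid sphingomyelinase-like enzyme, was at 13.6, 29.5 and 4.72 FPKM in LIMF and 1.74, 1.12 and 1.54 FPKM in HIMF, and its muscle difference of -3.02 was -2.40 without them. ENAH, a regulator of actin filaments, and the ubiquitin ligases RNF41, RNF115 and TRAF6 had muscle differences of -1.19, -1.77, -1.21 and -0.93, and fat differences of 0.34, 0.18, 0.17 and 0.29.

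**Figure D4:**
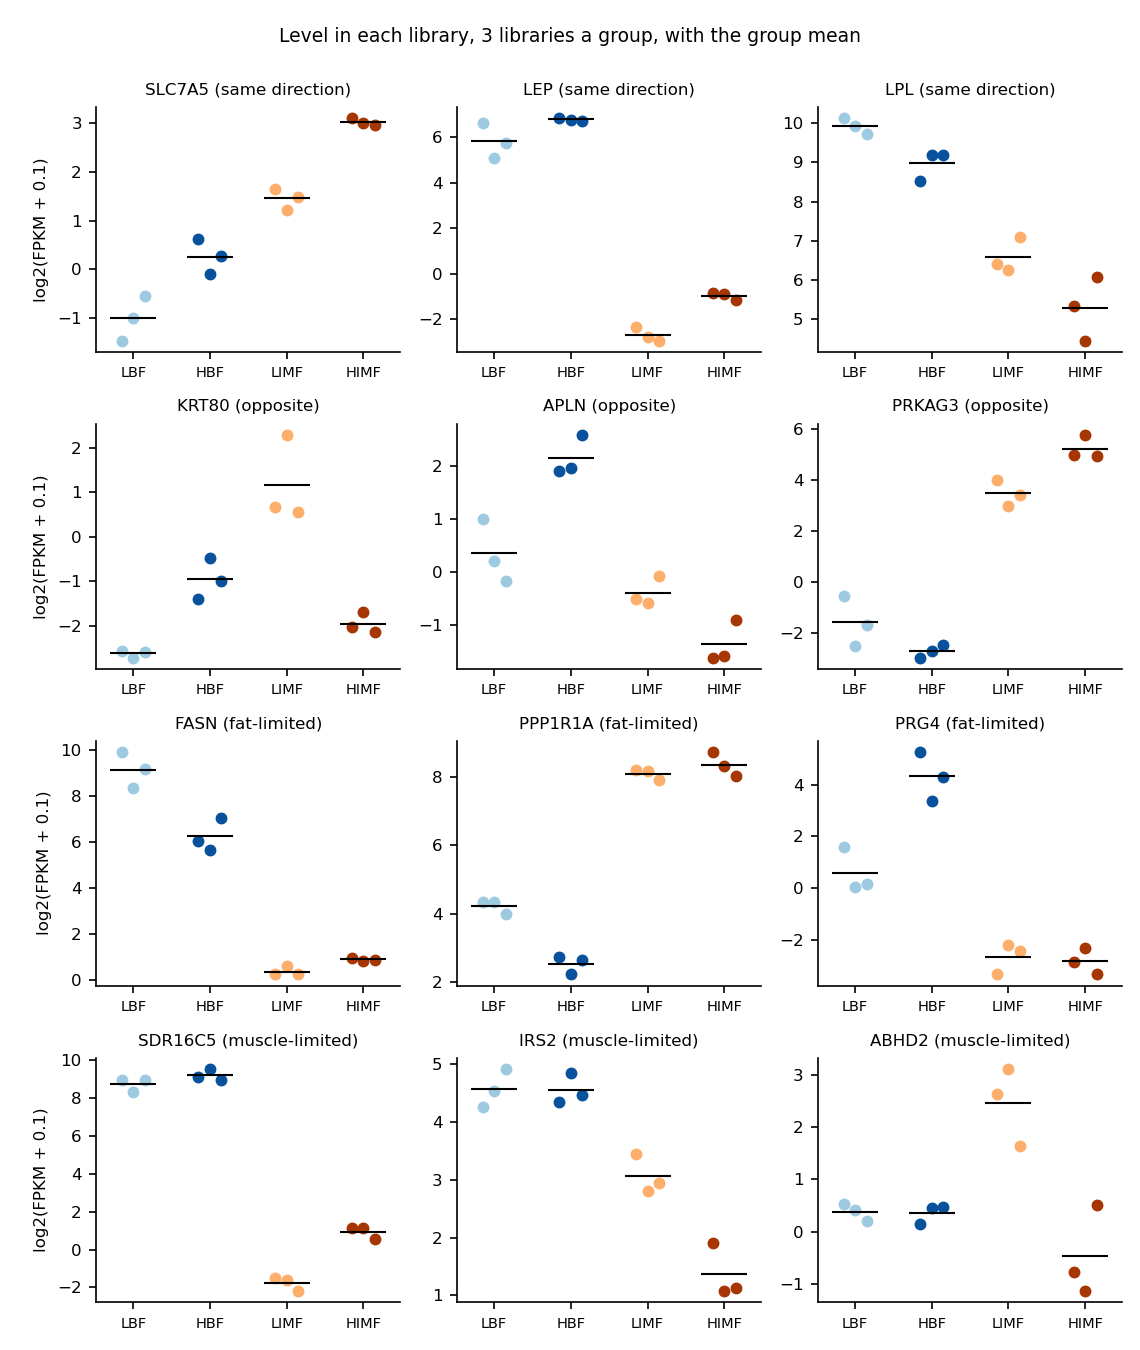
Level of 12 genes in each library, as log2(FPKM + 0.1), with a bar at the mean of the 3 libraries of a group and a row for each kind of gene (same direction, opposite, fat-limited, muscle-limited). In SLC7A5, LEP and LPL the high groups lie on the same side of the low groups in both tissues, and in KRT80 and APLN on opposite sides. In PRKAG3 the group means lie on opposite sides, but the fat groups overlap.

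The gene lists below were chosen with results of these data known, and their counts are set beside those of all genes, of which 7.77% were higher and 3.37% lower in fat and 6.21% higher and 3.65% lower in muscle at an unadjusted p under 0.05. Fatty acid synthesis and its NADPH supply had medians of opposite sign. Of 20 genes measured, 1 was higher and 7 lower in HBF, 3 were higher and 0 lower in HIMF, and 7 had p under 0.05 for the difference between the tissues. The median difference was -0.49 in fat and 0.21 in muscle, against 0.09 and 0.02 over all genes, and these signs held in every alternative, with -0.29 in fat without LBF replicate 1 and 0.089 in muscle without LIMF replicate 1. The 7 lower in HBF were FASN, PFKFB1, AACS, ME1, TKT, SLC25A1 and ACSS2, and the 3 higher in HIMF were SREBF1, THRSP and ELOVL6. ME1, which makes NADPH from malate, differed by -1.04 in fat and 0.38 in muscle. ELOVL6, the elongase of palmitate, differed by -0.32 and 1.06, and THRSP, a lipogenic nuclear protein, by -0.24 and 1.67. FASN and PFKFB1 were the members that passed the adjusted test in fat.

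Triglyceride storage, lipolysis and adipokine genes did not share a direction. Of 22 measured, 2 were higher and 2 lower in HBF and 5 higher and 3 lower in HIMF, and 12 of 22 had the same sign in both tissues. The 5 members higher in HIMF were PLIN1, which coats lipid droplets, ADIPOQ, which encodes adiponectin, CIDEC, LEP and SDR16C5. PLIN1 was at 0.975, 1.70 and 0.343 FPKM in LIMF and 4.90, 3.67 and 2.71 FPKM in HIMF, and at 511, 656 and 627 and 597, 873 and 568 FPKM in LBF and HBF. ADIPOQ was at 4.27, 6.46 and 1.31 FPKM in LIMF and 21.8, 8.36 and 11.2 FPKM in HIMF. In both the muscle groups did not overlap and the fat groups did. The 3 lower in HIMF were LPL and LIPE, the hormone-sensitive lipase, which adipocytes also express, and GK, the glycerol kinase, whose muscle values were 1.81, 3.62 and 1.93 FPKM in LIMF and 0.427, 0.312 and 1.03 FPKM in HIMF. The median fat difference of 0.17 was -0.01 with quantile normalization, and 0.020 without LBF replicate 1, and the median muscle difference of -0.06 ran from -0.19 without LIMF replicate 3 to 0.091 without LIMF replicate 2.

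All 23 measured genes of branched-chain amino acid and propionate breakdown had a negative fat difference, 15 with p under 0.05, and in muscle 0 had p under 0.05 in either direction and 8 of 23 were positive. The median was -0.81 in fat and -0.10 in muscle, and the muscle median was 0.30 without LIMF replicate 3 and -0.31 without LIMF replicate 1. For 7 of the 23 the difference between the tissues had p under 0.05. BCKDHB, a subunit of the branched-chain ketoacid dehydrogenase, was at 32.3, 14.8 and 22.4 FPKM in LBF and 8.49, 8.75 and 8.05 FPKM in HBF, and at 13.5, 11.8 and 21.5 FPKM in LIMF and 14.7, 15.2 and 22.7 FPKM in HIMF. IVD, which acts on leucine breakdown, differed by -1.37 in fat and -0.20 in muscle. ACAT1 and ALDH6A1 differed by -0.90 and -1.12 in fat and by -0.01 and -0.79 in muscle. None of the 23 passed the adjusted test in either tissue.

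Of 23 genes of insulin, AMPK and FoxO signalling, 0 were higher and 3 lower in HBF, 3 higher and 9 lower in HIMF, and 9 had p under 0.05 for the difference between the tissues. The 9 lower in HIMF were INSR, IRS2, FBXO32, GABARAPL1, MAP1LC3B, KLF15, PRKAG1, PRKAG2 and RETREG1. FBXO32, a muscle ubiquitin ligase that FoxO factors drive, differed by -0.63 in fat and -1.63 in muscle, and RETREG1, a receptor for autophagy of the endoplasmic reticulum, by -0.64 and -2.59. RETREG1 was at 60.9, 183 and 54.2 FPKM in LIMF, highest in the library with kidney transcripts, and its muscle difference was -2.03 without that pair. The list's median difference was -0.19 in fat and -0.26 in muscle, and in muscle -0.13 without LIMF replicate 2 and -0.40 without LIMF replicate 3. Of 26 genes of fatty acid oxidation, ketone bodies and PPAR targets, 3 were higher and 1 lower in HBF and 1 higher and 4 lower in HIMF, with medians of -0.03 and -0.38. The fat median changed sign with single libraries, from -0.10 without HBF replicate 2 to 0.068 without HBF replicate 3, and the muscle median ran from -0.61 without LIMF replicate 2 to -0.21 without LIMF replicate 3. PPARA, the lipid-sensing receptor of oxidation, differed by -0.53 in fat and -1.47 in muscle, and its relative PPARD by 1.33 and -0.81. UCP2, a mitochondrial carrier, differed by 1.60 and 0.25, and BDH1, which uses ketone bodies, by 0.06 and -1.80.

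Vessel and immune genes had large positive medians in fat and medians near 0 in muscle. Of 14 genes of vessels, Notch and endothelium, 10 were higher and 2 lower in HBF, 1 higher and 1 lower in HIMF, and 12 had p under 0.05 for the difference between the tissues, against 10.2% of all genes. The medians were 1.52 in fat and -0.05 in muscle, the latter from -0.17 without HIMF replicate 1 to 0.071 without HIMF replicate 2. DLL4, the Notch ligand of tip cells, differed by 1.59 in fat and 0.18 in muscle, GJA5, a connexin of arterial endothelium, by 1.46 and -0.29, and ANGPT2 by 1.36 and 0.15. All 20 immune and macrophage genes had a positive fat difference, 12 of them with p under 0.05, and 9 of 20 were positive in muscle, with 1 higher and 1 lower. Their medians were 1.21 and -0.03, and the muscle median was 0.26 without LIMF replicate 3 and -0.17 without HIMF replicate 3. CTSL, a lysosomal protease, was at 13.7, 6.65 and 14.97 FPKM in LBF and 60.4, 24.5 and 49.0 FPKM in HBF, and at 0.179, 0.764 and 0.135 FPKM in LIMF and 0.291, 0.720 and 0.379 FPKM in HIMF. The 5 macrophage markers summed to 150 to 303 FPKM in LBF and 351 to 424 in HBF, and 2 of them were higher in HBF with p under 0.05. The 5 endothelial markers (PECAM1, CDH5, DLL4, ESM1 and APLN) summed to 131 to 269 and 253 to 394, which overlapped, and 3 of them were higher. DLL4, ESM1 and APLN are also named in the text for their own fat differences, so this sum is not independent of them. In muscle both sums overlapped between LIMF and HIMF. The part of cell numbers in the fat differences was not tested.

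**Figure D5:**
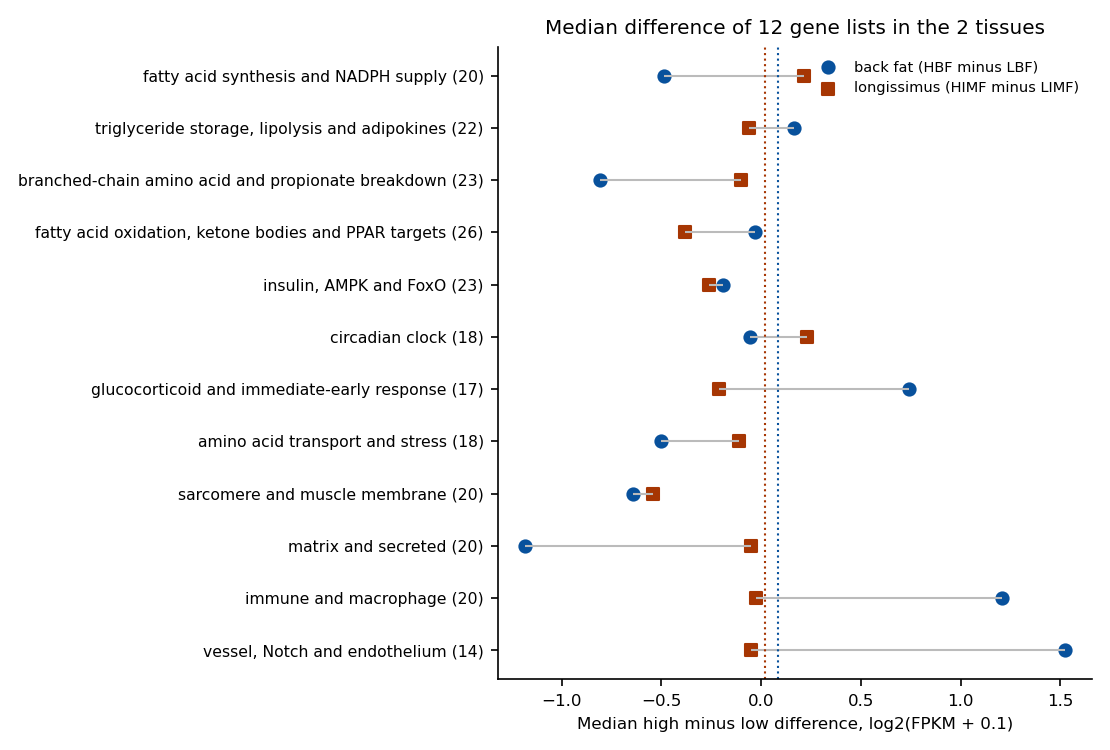
Median high minus low difference, in log2(FPKM + 0.1), over the measured genes of 12 lists (number in brackets) in back fat (circles) and LD muscle (squares), with dotted lines at the medians of all genes. The medians of the 2 tissues lie far apart for vessel, immune and matrix lists and close together for insulin and sarcomere lists. Close medians do not mean that the members changed alike. By limma 9 of 23 insulin and 10 of 20 sarcomere genes had an unadjusted p under 0.05 for the difference between the tissues, against 10.2% of all genes.

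Matrix and clock genes had few members of the same sign in both tissues. Of 20 matrix and secreted genes, 4 had the same sign in both tissues, 20% against 49.7% of all genes, and 4 were higher and 10 lower in HBF and 4 higher and 1 lower in HIMF. The medians were -1.18 and -0.05, and the muscle median ran from -0.14 without HIMF replicate 1 to 0.13 without HIMF replicate 2. Over the planned processing choices with all 12 libraries the fat median ran from -1.28 to -0.63. The 6 fibroblast markers, of which ISLR is also on the matrix list, had medians of -0.68 in fat and -0.24 in muscle, 5 of 6 were negative in fat, and they summed to 1023 to 2896 FPKM in LBF and 649 to 1647 FPKM in HBF. Their part in the matrix genes was not tested. IGFBP5, which binds insulin-like growth factors, was at 129, 57.3 and 35.5 FPKM in LBF and 23.9, 10.8 and 28.9 FPKM in HBF, and at 0.706, 5.86 and 18.5 FPKM in LIMF and 26.3, 19.4 and 14.3 FPKM in HIMF, with LIMF replicate 3 inside the HIMF range. Of 18 clock genes, 4 had the same sign in both tissues, 22.2%, with 0 higher and 2 lower in HBF and 3 higher and 2 lower in HIMF. HLF, an output factor of the clock, was at 9.38, 8.82 and 9.89 FPKM in LBF and 3.27, 4.74 and 5.41 FPKM in HBF, and at 3.46, 6.54 and 3.47 FPKM in LIMF and 6.49, 5.85 and 5.17 FPKM in HIMF. Its relative TEF differed by -0.69 in fat and 0.42 in muscle, and PER2, a repressor of the clock, by -0.59 and 0.97. The core factor BMAL1 was at 8.52, 1.89 and 1.04 FPKM in LIMF and 1.80, 1.58 and 1.48 FPKM in HIMF, with LIMF replicate 1 far above the other muscle libraries. The median muscle difference of the clock genes was 0.23 and was -0.01 without LIMF replicate 2.

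Of 17 glucocorticoid and immediate-early genes, 4 were higher and 0 lower in HBF and 0 higher and 2 lower in HIMF, with medians of 0.74 and -0.21. The fat median was 0.49 without HBF replicate 1, and the muscle median was 0.025 without HIMF replicate 3. The median of the differences between the tissues was 0.95, and 0.32 without HIMF replicate 2. EGR1, an early response factor, was at 52.6, 53.3 and 43.3 FPKM in LBF and 91.0, 48.1 and 114 FPKM in HBF, and at 4.64, 1.73 and 6.99 FPKM in LIMF and 3.35, 0.963 and 0.726 FPKM in HIMF. FOS spread widely within groups, from 6.45 to 224 FPKM within HIMF. Of 18 genes of amino acid transport and stress, 3 were higher and 6 lower in HBF and 3 higher and 3 lower in HIMF, and 7 of 18 had the same sign. The medians were -0.50 in fat and -0.11 in muscle, the latter from -0.42 without LIMF replicate 1 to -0.0072 without LIMF replicate 2. ASNS, asparagine synthetase, and DDIT4, an inhibitor of mTOR, differed by -0.23 and 0.12 in fat and by 1.10 and 1.11 in muscle, and the serine enzyme SHMT1 by -1.71 in fat and 0.02 in muscle. Of 20 sarcomere and muscle membrane genes, 0 were higher and 6 lower in HBF and 2 higher and 6 lower in HIMF, and 10 had p under 0.05 for the difference between the tissues. Their median was -0.64 in fat and -0.25 there without LBF replicate 3, and -0.54 in muscle and -0.21 there without LIMF replicate 3. Over the planned processing choices with all 12 libraries the fat median ran from -1.12 to -0.12. The median of the differences between the tissues, -0.25, ran from -1.04 to 0.25 over these choices. XIRP1 and ANKRD2, stress-responsive proteins of the sarcomere, differed by -2.57 and -2.50 in muscle.

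The lists that the study drew up in one tissue were then looked at in the other tissue, which had no part in choosing them. Of the 191 genes of the fat list, 186 were tested, 62 of them higher and 124 lower in HBF here. In muscle 51.6% of the 186 had the sign they had in fat, 7 had p under 0.05 in that direction and 13 in the other, 10.8% in all against 9.85% of all genes. The median muscle difference was -0.05 both for the genes higher and for those lower in HBF. The 7 in the same direction were ACTN2, CTH, EPHX1, HOXA10, LPL, SLC7A5 and SPACA1. Those in the opposite direction included ACSS1, ADAMTSL1, APLN, CELSR2, FNDC1, IGFBP5, KRT80, NXPH4, PI15, PRKAG3 and SDS. Of the 85 genes of the muscle list, 84 were tested, 30 higher and 54 lower in HIMF. In fat 54.8% had the sign they had in muscle, 3 had p under 0.05 in that direction (KIF3C, LEP and SLC7A5) and 6 in the other (HBEGF, KRT80, PRKAG3, SRXN1, STC2 and TENT5B). That was 10.7% against 11.1% of all genes. The median fat difference was 0.10 for those higher and -0.02 for those lower in HIMF.

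Genes far higher in one tissue were followed in the other. Of the 201 genes at least 5 log2 units higher in fat than in muscle, 137 had a positive muscle difference, 29 with p under 0.05 (14.4% against 6.21% of all genes), and 0 were lower with p under 0.05. The 3 LIMF libraries had a median FPKM over these genes of 0.209, 0.375 and 0.241, and the HIMF libraries 0.414, 0.314 and 0.385, so LIMF replicate 2 lay inside the HIMF range. The median muscle difference was 0.23, and 0.08 without the libraries with EIF1AY, 0.11 without HIMF replicate 1 and 0.05 with a pseudocount of 1. Of the 8 adipocyte markers, 6 had a positive muscle difference. FABP4, the most abundant of them in fat, was at 25.3, 49.5 and 40.3 FPKM in LIMF and 46.1, 40.2 and 42.5 FPKM in HIMF, and the whole list summed to 1137 to 2666 FPKM in LIMF and 662 to 1550 in HIMF, a sum carried by CA3, which muscle fibres also express.

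Of the 246 genes at least 5 log2 units higher in muscle, 52 had a positive fat difference, 3 were higher (1.22% against 7.77% of all genes) and 24 lower (9.76% against 3.37%) in HBF with p under 0.05, and the median fat difference was -0.33. The LBF libraries had a median FPKM over these genes of 0.101, 0.0932 and 0.467, and the HBF libraries 0.0713, 0.0868 and 0.0965. LBF replicate 3 stood apart, and without it the median fat difference was -0.004. Within each tissue's own genes, the medians were 0.03 for the 201 genes in fat and 0.16 for the 246 genes in muscle.

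The number of genes called for the difference between the tissues moved most when 1 muscle library, LIMF replicate 3, was left out. Without LIMF replicate 3, 338 genes passed the adjusted test in muscle (216 higher and 122 lower in HIMF) and 108 passed it for the difference between the tissues, against 2 and 0 with all 12 libraries. For the difference, 4 passed without LBF replicate 2 and 4 without LIMF replicate 1. All 108 had the same sign of that difference with all libraries, 82 of them with p under 0.05. Of the 108, 54 had p under 0.05 in both tissues in opposite directions, 47 in muscle alone, 6 in fat alone and 1 in both in the same direction. For 50 of them LIMF replicate 3 lay between the mean log2 level of the other LIMF libraries and that of HIMF. The genes named next were chosen after their values were seen. FILIP1, a filamin-interacting protein, was at 14.3, 17.0 and 5.42 FPKM in LIMF and 5.59, 3.98 and 6.29 FPKM in HIMF, and MAP2K3, a kinase of the p38 pathway, at 89.2, 105 and 46.0 FPKM in LIMF and 35.8, 37.8 and 48.7 FPKM in HIMF. NUDT16, a nucleotide hydrolase, was at 0.711, 0.707 and 3.62 FPKM in LIMF and 3.24, 2.49 and 4.04 FPKM in HIMF, and RASGEF1A at 1.15, 1.56 and 0.0306 FPKM in LIMF and 0.0420, 0.122 and 0.0667 FPKM in HIMF. In each, LIMF replicate 3 was closer to HIMF than to its own group. In fat FILIP1 was at 1.36, 1.15 and 1.13 FPKM in LBF and 1.93, 2.68 and 2.60 FPKM in HBF. KRT80, HBEGF, APLN and YWHAH had differences between the tissues of 5.10, 2.42, 2.63 and 1.71 without this library, with adjusted p of 0.0243, 0.0504, 0.0504 and 0.0335. No label gives a reason to leave this library out.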

How the data were processed

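RNA of 6 back fat and 6 LD muscle samples was sequenced on an Illumina platform. The authors cleaned reads with fastp, aligned them with HISAT2 to the pig genome Sscrofa11.1 and deposited FPKM per gene from Cufflinks 2.2.1, which scales by transcript length and library total, so a few abundant transcripts can shift all others. No counts were used here. Groups came from the labels. Values were taken to log2(FPKM + 0.1), which understates changes of low genes, for genes with a mean FPKM above 0.05. One limma 3.58.1 fit (R 4.3.3, eBayes with trend) over 4 group means gave the fat difference, the muscle difference, their difference and their mean, with Benjamini-Hochberg adjustment over all 15965 genes. The scripts were tested on simulated data. An exact permutation test of 3 against 3 cannot go below 0.10 and was not used. p-values measure the spread between these libraries only. Named genes were up to 8 per group of genes in each direction with the smallest p, all genes at adjusted p under 0.05, members of the lists and genes the study names. Members and lists were chosen with earlier results of these data known. Gene positions are from RefSeq, Sscrofa11.1. Alternatives were other pseudocounts, filters, scalings, eBayes without trend, separate fits, a replicate block and leaving out libraries. One gene of the lists is not reported here by name.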

Additional observations from a re-analysis of the deposited data

Results flagged for a closer look

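In 13 of the opposite genes that were named, every high library lay on one side of every low library in fat and on the other side in muscle. The fat minus muscle difference, in log2(FPKM + 0.1), was 4.79 for KRT80, 2.78 for APLN, 2.37 for TENT5B, 2.35 for HBEGF, 1.81 for EPB41L4A, 1.56 for YWHAH and 1.40 for PLEC. It was -4.61 for WDR6, -2.96 for PI15, -2.25 for IQCK, -2.04 for ADAMTSL1, -1.77 for CELSR2 and -1.29 for CDK5RAP1. The genes were named by the size of the p of this same difference, so the pattern is a description, and by limma's test of the difference none of the 13 passed, with adjusted p from 0.0748 upward. The WDR6 value rests on LIMF libraries near 0 and on the pseudocount and is not read as a fold. Over all genes 1.11% did not overlap in either tissue in opposite directions and 1.21% in the same direction. With 3 libraries a group, single libraries were not tested as outliers.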

How the results depend on the processing

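For the difference between the tissues, 0 genes passed with all 12 libraries, 5 without the libraries with kidney transcripts, 2 with eBayes without trend, and 1 each without the EIF1AY libraries, with library weights, with no filter, with a pseudocount of 0.01 and with a pseudocount of 1. In fat, 8 genes passed, against 0 without the EIF1AY libraries, 22 with library weights, 2 at a mean FPKM over 1, 14 with no filter, 4 with a pseudocount of 0.01, 43 with a pseudocount of 1 and 0 in a separate fit of each tissue. In muscle, 2 passed, against 5 without the EIF1AY libraries, 7 with median-of-ratios scaling, 7 with no filter, 7 with quantile normalization, 0 in a separate fit, and 1 without the kidney-transcript libraries, with library weights, at a mean FPKM over 1 and with a pseudocount of 1. For the mean, 1 passed, against 4 with eBayes without trend, 2 without the kidney-transcript libraries, 2 at a mean FPKM over 1, 2 with a pseudocount of 1 and 0 with either scaling. With 1 library left out in turn there were 0 to 17 genes in fat, 0 to 338 in muscle, 0 to 108 for the difference and 0 to 12 for the mean, the highest 3 of these without LIMF replicate 3 and the highest in fat without LBF replicate 1. This gave Pearson's r of -0.026 to 0.139 and rho of -0.076 to 0.028, 48 to 147 same-direction genes, 55 to 223 opposite, 438 to 825 fat-limited and 407 to 1358 muscle-limited. The same-sign share ran from 47.8% to 52.7% for the fat list and from 51.2% to 63.1% for the muscle list, and the median from 0.075 to 0.28 for the fat-high and from -0.48 to -0.0044 for the muscle-high genes. Pearson's r was 0.016 without genes listed at 0 and -0.013 without the kidney-transcript libraries, and rho was 0.017 without the EIF1AY libraries. The fat list's share was 48.4% with library weights and 49.5% with a pseudocount of 1, and the muscle list's 60.7% without the EIF1AY libraries and 59.0% at a mean FPKM over 1. The fat-high median was 0.075 without the EIF1AY libraries, 0.30 with library weights, 0.32 with a pseudocount of 0.01 and 0.046 with 1, and the muscle-high median was -0.48 without the kidney-transcript libraries, -0.74 with a pseudocount of 0.01 and -0.075 with 1. Within a tissue the replicate numbers did not meet the rule for pairing: deviations of same-numbered libraries correlated at 0.069, 0.131 and 0.010 in fat and at -0.072, 0.044 and -0.050 in muscle. Across tissues they correlated at 0.126, 0.244 and 0.056 between LBF and LIMF, the first 2 of these being the highest of the 36 pairs, and at -0.047, -0.054 and -0.038 between HBF and HIMF. With the number as a replicate block 0 genes passed in muscle and 0 for the mean, and of 6 that passed in fat 2, PFKFB1 and PRG4, were among the 8 called without it. The 64 genes that the naming rule took from the groups of genes kept their sign, and their side of an unadjusted p of 0.05, for the value followed, under every alternative that held and tested them, except CYP4B1 under a pseudocount of 1, at -0.37. That value was the mean of both differences for same-direction genes and the difference between the tissues for the others. The others were chosen by the p of that same difference, and the alternatives reuse these libraries. Staying under 0.05 was thus largely fixed in advance. Membership of a class was not kept in this way, since it needs the p of each tissue. Adjusted p-values did cross the threshold, as for KRT80 and YWHAH without LIMF replicate 3. The cause of these changes was not tested. Leaving out libraries with kidney transcripts or EIF1AY, leaving out genes listed at 0, and weighting libraries were chosen after seeing the data. Depth is unknown, 3 libraries a group limit the precision, and low FPKM values rest on few fragments.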

Other observations

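Some enzymes of one-carbon and organic acid metabolism were fat-limited and stood in no list above. They were chosen after their values were seen. ALDH1L1, a folate enzyme of adipocytes and liver, was at 52.9, 41.8 and 72.6 FPKM in LBF and 8.08, 10.4 and 15.1 FPKM in HBF, and at 0.265, 0.907 and 0.0659 FPKM in LIMF and 0.237, 0.174 and 0.316 FPKM in HIMF, with a fat difference of -2.32 ± 0.52 (SE) and an adjusted p of 0.174 by limma. ADHFE1, a mitochondrial hydroxyacid transhydrogenase, was at 49.7, 39.1 and 44.5 FPKM in LBF and 10.9, 10.5 and 18.9 FPKM in HBF, and at 2.75, 4.08 and 13.9 FPKM in LIMF and 7.07, 3.40 and 3.96 FPKM in HIMF. GCDH, which acts in lysine breakdown, was at 24.0, 21.9 and 21.9 FPKM in LBF and 10.5, 10.8 and 11.4 FPKM in HBF, and at 5.94, 8.18 and 14.8 FPKM in LIMF and 8.91, 7.15 and 12.6 FPKM in HIMF. For these 3 genes the fat groups did not overlap and the muscle groups did.

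CA3, the carbonic anhydrase shared by adipocytes and slow muscle fibres, was at 521, 211 and 1013 FPKM in LBF and 119, 50.3 and 221 FPKM in HBF, and at 2548, 1001 and 1687 FPKM in LIMF and 1433, 584 and 944 FPKM in HIMF. FBP1, a gluconeogenic enzyme abundant in kidney and liver, was at 5.35, 10.1 and 21.6 FPKM in LBF and 4.19, 3.93 and 3.22 FPKM in HBF, and at 0.143, 6.53 and 0.175 FPKM in LIMF and 0.125, 0.127 and 0.292 FPKM in HIMF. Its high muscle value was in LIMF replicate 2, the library with kidney transcripts, and without both libraries of that kind its muscle difference went from -1.49 to 0.07.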
